A study of Homo sapiens with 6 samples.

Results

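This report describes 7 mature miRNAs of inflammatory feedback, hsa-miR-146a-5p, hsa-miR-146a-3p, hsa-miR-146b-5p, hsa-miR-146b-3p, hsa-miR-155-5p, hsa-miR-147b-3p and hsa-miR-132-3p. They were chosen by name, and all 7 were found among the 1596 entries of the deposited table. Small RNA libraries came from melanoma cells given RSL3 combined with IFN-γ for 24 hours (the combined treatment, 3 libraries) or RSL3 alone for 24 hours (3 libraries). RSL3 blocks GPX4, which reduces lipid peroxides, and so brings on ferroptosis, and IFN-γ is a cytokine of activated T cells. Both groups thus carry RSL3, and no library without RSL3 or with IFN-γ alone was analysed here. The labels name the established melanoma line A2058, whereas the paper's methods name A375, another such line, and the labels give no dose. The labels do not say whether replicates were independent cultures. The p-values therefore cover only how these libraries varied, and that variation may be technical.

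A miRNA hairpin is cut into a 5p and a 3p strand, and usually a single strand is kept in the silencing complex, where its seed (bases 2 to 8) pairs with target mRNAs. NF-κB switches on the gene of miR-146a, and miR-146a-5p in turn represses IRAK1 and TRAF6, adaptors of Toll-like and interleukin-1 receptor signalling. MiR-155-5p, cut from the RNA MIR155HG, represses SOCS1, an inhibitor of cytokine signalling through STAT factors. MiR-147b-3p lies in the transcript of C15orf48, a gene induced by inflammatory stimuli, and miR-132-3p is induced by the factor CREB.

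The mature sequences are shown because the members fall into groups by seed, which is in capitals. Sequences are RefSeq's on GRCh38.p14, 5′ to 3′, and were found for all 7 members.
hsa-miR-146a-5p: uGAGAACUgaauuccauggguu
hsa-miR-146b-5p: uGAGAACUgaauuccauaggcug
hsa-miR-146a-3p: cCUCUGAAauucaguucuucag
hsa-miR-146b-3p: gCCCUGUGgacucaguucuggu
hsa-miR-155-5p: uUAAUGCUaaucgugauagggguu
hsa-miR-147b-3p: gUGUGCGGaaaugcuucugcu
hsa-miR-147a: gUGUGUGGaaaugcuucugc
hsa-miR-132-3p: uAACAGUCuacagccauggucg
hsa-miR-212-3p: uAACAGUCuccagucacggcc

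MiR-146a-5p and miR-146b-5p share a seed and match at 20 of the 22 positions that can be compared. They differ by G18A and U21C, counted from 1 at the 5′ end with the base of miR-146a-5p first. Their 3p strands have different seeds. MiR-132-3p shares its seed with miR-212-3p, from a hairpin 263 bases away, and differs from it at 4 of 21 positions. MiR-147b-3p and miR-147a differ by C6U (the base of miR-147b-3p first), which lies inside the seed. No other entry with a known sequence in the table had a member's seed.

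The hairpins of the miR-146 pair show where each strand sits, with mature strands in capitals. Both arms are annotated on each hairpin, and the 5p strand of either is the more abundant product in the data below.
MIR146A: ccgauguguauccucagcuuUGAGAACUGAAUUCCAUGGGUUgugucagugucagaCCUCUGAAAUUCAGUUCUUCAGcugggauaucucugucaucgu
MIR146B: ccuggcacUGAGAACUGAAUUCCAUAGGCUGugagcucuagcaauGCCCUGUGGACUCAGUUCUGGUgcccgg

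MIR146A lies at chr5:160485352-160485450 on the plus strand of GRCh38, over an exon of the noncoding gene MIR3142HG. MIR146B lies at chr10:102436512-102436584 on the plus strand, inside no other gene of GENCODE 29. MIR155 lies at chr21:25573980-25574044 on the plus strand, over an exon of MIR155HG. MIR147B lies at chr15:45433050-45433129 on the plus strand, over an exon of C15orf48. MIR132 lies at chr17:2049908-2050008 on the minus strand, inside no other gene of GENCODE 29.

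Read counts totalled 4383940 to 5367150 in the combined treatment libraries and 4897890 to 6513382 in the RSL3 libraries. MiR-21-5p, the most abundant entry, took 22.1% to 34.3% of these counts in the combined treatment group and 33.8% to 36.2% in the RSL3 monotreatment group. Levels below are CPM, counts brought to a common library size with TMM factors. These are meant to correct for such shifts of composition and assume that most miRNAs do not change, which was not tested. They were 0.94, 1.33 and 1.15 in the combined treatment libraries and 0.86, 0.91 and 0.88 in the RSL3 libraries, so the groups did not overlap. Tests are edgeR's quasi-likelihood test over 758 miRNAs, with p-values adjusted over all of them. A miRNA is called at an adjusted p under 0.05. Of 7 listed miRNAs of melanocytes and melanoma, taken as markers of the labelled cells, 6 were in the table and 3 could be tested, and these did not move together. MiR-211-5p, from the melanocyte gene TRPM1, had 1210 to 2269 reads in every library (log2 fold change 0.23, adjusted p = 0.564 by edgeR). Its relative miR-204-5p was at 161 to 174 CPM in the combined treatment group and 238 to 344 CPM in the RSL3 group (−0.75, adjusted p = 0.075 by edgeR). These groups did not overlap in CPM, as was so for 29.8% of all tested miRNAs, but overlapped as shares of the summed counts. With library totals it was at −0.39 (adjusted p = 0.367 by edgeR). DESeq2 called it (−0.72, adjusted p = 0.0412), as it did 12.5% of all tested miRNAs.

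Of the melanoma cluster on the X chromosome, miR-514a-3p had 60, 165 and 188 reads in the combined treatment libraries and 331, 224 and 434 in the RSL3 libraries. It was called lower with the combined treatment (−1.38, adjusted p = 0.0374 by edgeR). The call ended with library totals (−0.97, adjusted p = 0.108 by edgeR), with the GC trend removed (−0.95, adjusted p = 0.118 by edgeR), and when either replicate 2 or replicate 3 of the combined treatment, or RSL3 replicate 1 or 3, was left out (−1.59 to −1.27). The other cluster members, miR-506-3p, miR-508-3p and miR-509-3p, had 0 to 17 reads in a library. The summed level of the 6 was 489 to 578 CPM in the combined treatment group and 577 to 744 CPM in the RSL3 group, and the part of these markers in the results below was not tested.

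MiR-146a and miR-155 are also abundant in leukocytes, and the summed level of 4 leukocyte miRNAs (miR-142-3p, miR-142-5p, miR-150-5p and miR-223-3p) was 9.39 to 11.8 CPM in the combined treatment group and 9.67 to 13 CPM in the RSL3 group. The 4 did not move together. MiR-142-3p, the defining one, had 24, 22 and 32 reads with the combined treatment and 10, 7 and 24 with RSL3 alone (log2 fold change 0.89, adjusted p = 0.274 by edgeR). MiR-223-3p went the other way, with 1, 1 and 1 reads against 9, 11 and 4, and was not tested. MiR-142-5p and miR-150-5p were at −0.45 and −0.24 on the log2 scale, with groups that overlapped. In these bulk libraries fewer cells of a type and less RNA per cell cannot be told apart.

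The members spanned over 4 orders of magnitude. MiR-146a-5p was second of all 1596 entries by mean CPM, behind miR-21-5p alone. The next members were miR-146b-5p at rank 67, miR-155-5p at 134, miR-132-3p at 200, miR-147b-3p at 252, miR-146a-3p at 283 and miR-146b-3p at 628. MiR-147b-3p and its neighbours in this order, miR-132-3p above in the combined treatment group and miR-146a-3p below in the RSL3 group, had overlapping ranges of libraries. The other neighbours did not overlap in any group. The mature strands are 21 to 24 bases long, and the part of length in these levels was not tested. Adapters are ligated to some sequences better than to others, and the order of different miRNAs is approximate.

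**Figure D1:**
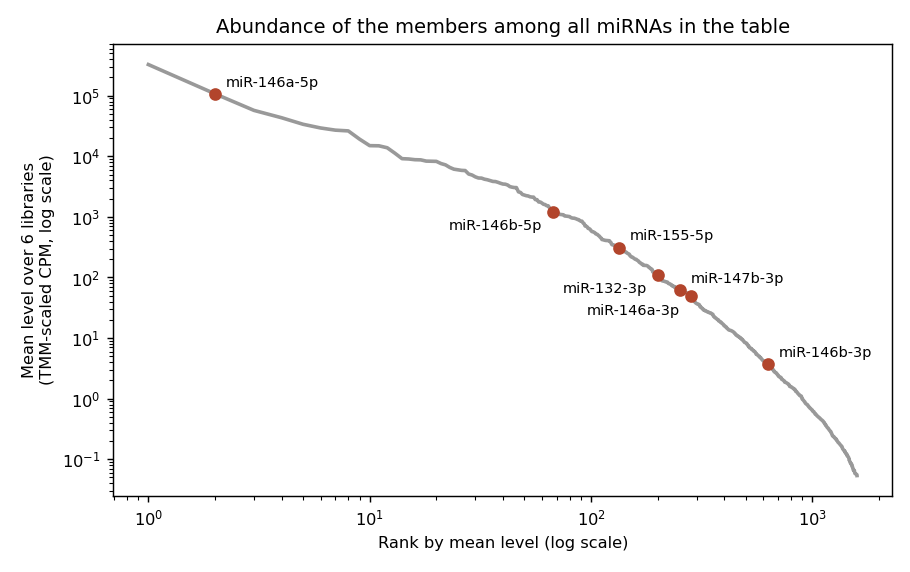
Mean TMM-scaled CPM over the 6 libraries against rank, both on log scales, for all miRNAs of the table with reads (grey line) and the 7 members (red points). MiR-146a-5p sits at rank 2 and miR-146b-3p at rank 628, with the other 5 members between ranks 67 and 283.

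None of the 7 members was called by edgeR, while 4.75% of all tested miRNAs were. At an unadjusted p under 0.05 there were 2 members, miR-147b-3p and miR-146b-5p, both higher in the combined treatment group, and the share of all tested miRNAs was 25.9%. DESeq2 called miR-147b-3p alone among the members (12.5% of all tested) and limma with a pseudocount of 5 called 0. EdgeR with the replicate number as a block also called miR-147b-3p alone (10.8% of all tested). With the block and the GC trend removed together it called 0 members (1.72% of all tested). The same 2 members were those whose groups did not overlap in CPM, as was so for 29.8% of all tested miRNAs. The median log2 fold change of the members was 0.12, against −0.04 over all tested miRNAs.

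Among the 5p strands of the miR-146 seed, miR-146a-5p, the repressor of IRAK1 and TRAF6, was not called. It had 147753, 94014 and 102402 CPM in the combined treatment libraries (replicates 1, 2 and 3), against 98956, 115754 and 85689 CPM in the RSL3 libraries. The groups overlapped, and replicate 1 of the combined treatment stood above the other 5 libraries. The log2 fold change was 0.20 (95% interval −0.36 to 0.75, adjusted p = 0.668 by edgeR). Without replicate 1 of the combined treatment it turned to −0.04 (adjusted p = 0.918 by edgeR).

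As a plain share of a library's summed counts, miR-146a-5p took 14.0%, 12.5% and 11.8% with the combined treatment. It took 8.52%, 10.6% and 7.52% with RSL3 alone. The sums exceed the library totals that the authors' normalized signal implies. They were 1.09, 1.15 and 1.16 times those totals with the combined treatment and 1.04, 1.03 and 1.13 times with RSL3 alone. Shares of the implied totals were not computed, and library totals below are the summed counts. Exact (Clopper-Pearson) 95% intervals cover counting error only and take each count as a separate read. They were 11.796% to 11.850% for the lowest combined treatment library and 10.544% to 10.599% for the highest RSL3 library. On this scale the groups did not overlap, and the means were 12.8% ± 1.09 in the combined treatment group and 8.87% ± 1.56 in the RSL3 group (SD, n = 3 each). Groups apart on this scale were found for 3 members and for 32.1% of all tested miRNAs. With library totals in place of TMM factors the log2 fold change was 0.52 (standard error 0.198, adjusted p = 0.104 by edgeR), while the median of all tested miRNAs moved to 0.33. Relative to that median, miR-146a-5p was higher by 0.19 with library totals and by 0.23 with TMM factors.

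MiR-146b-5p, which has the same seed and is known as a product of STAT3 and NF-κB signalling, was the less abundant of the pair. It had 1875, 1214 and 1193 CPM in the combined treatment libraries, against 901, 918 and 1087 CPM in the RSL3 libraries. All 3 combined treatment libraries were above all 3 RSL3 libraries. The log2 fold change was 0.56 (95% interval 0.01 to 1.11), which did not pass over all miRNAs (adjusted p = 0.186 by edgeR). It dropped to 0.31 when replicate 1 of the combined treatment was left out and was 0.51 to 0.66 when any other library was. With library totals it was 0.89 and was called (adjusted p = 0.0458 by edgeR, as were 9.37% of all tested miRNAs).

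Since both 5p strands read the same seed, their sum gives the seed's level. It was 149628, 95227 and 103596 CPM in the combined treatment libraries and 99857, 116672 and 86776 CPM in the RSL3 libraries, and the groups overlapped. MiR-146a-5p made up 98.7% to 99.2% of it. Within a library, which needs no scaling, there were 78.8, 77.5 and 85.8 miR-146a-5p reads for each miR-146b-5p read with the combined treatment, against 110, 126 and 78.9 with RSL3 alone. The groups overlapped through RSL3 replicate 3, and the ratio differed by −0.35 on the log2 scale (exact permutation p = 0.2, two-sided; 0.533 adjusted over the 4 ratios computed; the smallest p for 3 against 3 is 0.1). The sources used here do not say how reads matching both strands were assigned. Whether the miR-146b-5p counts include reads of miR-146a-5p was not tested, and such reads would enter its level, this ratio and the sum.

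The 3p strands of both hairpins were rare beside their 5p strands. MiR-146a-3p had 42.5, 47.1 and 46.3 CPM in the combined treatment libraries and 66.1, 48.5 and 41.1 CPM in the RSL3 libraries, which was −0.19 as a log2 fold change (95% interval −0.76 to 0.37, adjusted p = 0.674 by edgeR) and turned to 0.19 with library totals. MiR-146b-3p rested on 14, 27 and 22 reads with the combined treatment and 29, 11 and 14 reads with RSL3 alone (log2 fold change 0.12, 95% interval −0.95 to 1.19, adjusted p = 0.893 by edgeR). The groups overlapped for both strands.

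There were 3475, 1995 and 2211 miR-146a 5p reads for each 3p read in the combined treatment libraries, and 1497, 2386 and 2084 in the RSL3 libraries. For miR-146b the same ratio was 555, 263 and 336 in the combined treatment libraries and 157, 373 and 444 in the RSL3 libraries. In both hairpins the groups overlapped, and every library had at least 157 reads of the 5p strand for each read of the 3p strand. The log2 ratio of 3p to 5p reads differed by −0.35 for miR-146a (standard error 0.382, adjusted p = 0.636 by limma) and by −0.31 for miR-146b (standard error 0.490, adjusted p = 0.741 by limma), over 181 hairpins, of which limma called 0 (0.0%, with 35 at an unadjusted p under 0.05).

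**Figure D2:**
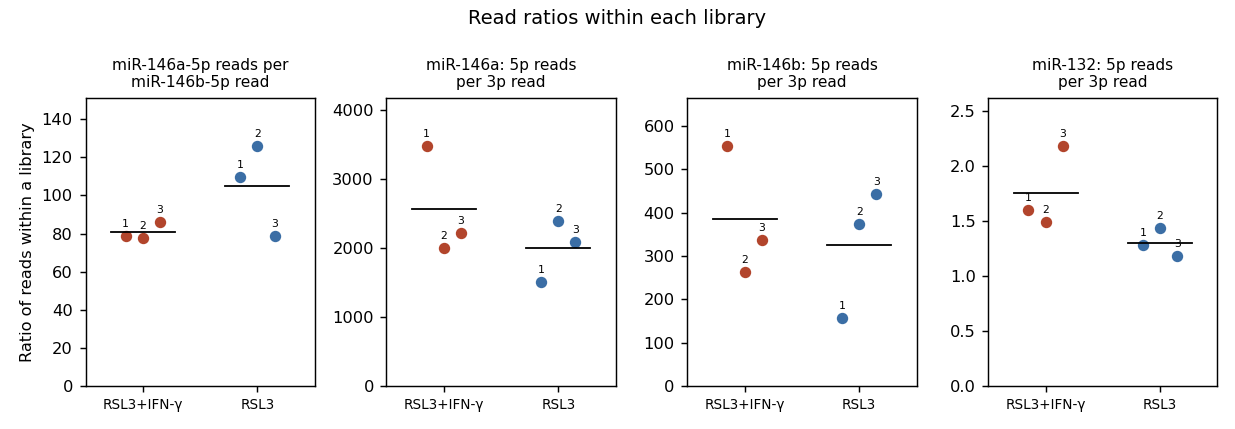
Ratios of reads within each library, which need no scaling between libraries, with RSL3 combined with IFN-γ in red, RSL3 in blue, replicate numbers above the points and lines at the group means (n = 3). The panels give miR-146a-5p per miR-146b-5p read and 5p per 3p read of miR-146a, miR-146b and miR-132. The groups overlap in all but the miR-132 panel, where ratios are 1.48 to 2.18 with the combined treatment and 1.18 to 1.43 with RSL3 alone. How many of all hairpins had groups apart was not counted.

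MiR-155-5p, the repressor of SOCS1, varied as much within the groups as between them. It had 393, 203 and 272 CPM in the combined treatment libraries, against 390, 232 and 372 CPM in the RSL3 libraries. Replicate 1 was the highest and replicate 2 the lowest in both groups. The log2 fold change was −0.20 (95% interval −0.86 to 0.47, adjusted p = 0.712 by edgeR), and it turned to 0.13 with library totals. Its other strand, miR-155-3p, had 0, 0 and 3 reads in the combined treatment libraries and 0, 0 and 3 in the RSL3 libraries and was not tested.

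MiR-147b-3p, known from mouse macrophages as a brake on Toll-like receptor responses, had the largest fold change of the 7 members. It had 49.3, 130 and 71.7 CPM in the combined treatment libraries, against 32, 46.5 and 39.9 CPM in the RSL3 libraries. These rest on 204, 762 and 444 reads with the combined treatment and 162, 208 and 228 reads with RSL3 alone. Each combined treatment library was above each RSL3 library, although replicate 1 of the combined treatment exceeded RSL3 replicate 2 by little.

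The means of miR-147b-3p were 83.7 ± 41.7 CPM in the combined treatment group and 39.5 ± 7.28 CPM in the RSL3 group (SD, n = 3 each). The log2 fold change was 1.09 (standard error 0.35, 95% interval 0.31 to 1.86), a 2.12-fold difference that did not pass over all miRNAs (adjusted p = 0.089 by edgeR). With the replicate number as a block it was 0.99 and was called (adjusted p = 0.0439 by edgeR), as were 10.8% of all tested miRNAs. With the block and the GC trend removed together it was 0.88 and was no longer called (adjusted p = 0.101 by edgeR), and the share of all tested miRNAs was 1.72%. DESeq2 called it as well (1.12, adjusted p = 0.0275), and limma did not (0.91, adjusted p = 0.108). Without replicate 2 of the combined treatment it was 0.61 (adjusted p = 0.286 by edgeR). EdgeR then called 4 higher and 2 lower of all 787 tested miRNAs. Without replicate 1 of the combined treatment it was 1.36 and was called (adjusted p = 0.0176 by edgeR). In that fit edgeR called 45 higher and 50 lower of all 815 tested miRNAs.

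Replicate 2 of the combined treatment also had the highest summed level of a list of 6 miRNAs of blood cells (all in the table, 4 tested). This sum was 86.0 to 332 CPM in the combined treatment group and 102 to 169 CPM in the RSL3 group. Most of it was miR-451a, a product of red cells, at 318 CPM in that library. MiR-451a had 309, 1864 and 973 reads with the combined treatment and 472, 395 and 901 reads with RSL3 alone. Its part in the miR-147b-3p values was not tested. The rest of the list was split. Within the combined treatment group, replicate 2 was highest for miR-144-3p and miR-142-5p (4.78 and 4.44 CPM) but lowest for miR-142-3p and miR-150-5p (3.76 and 1.02 CPM). MiR-223-3p had 1 read in each library of that group.

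The other strand of this hairpin, miR-147b-5p, had 5, 3 and 5 reads with the combined treatment and 2, 0 and 10 reads with RSL3 alone and was not tested. MiR-147a, whose seed differs by the single base given above, had 4, 9 and 11 reads in the combined treatment libraries against 5, 21 and 15 reads in the RSL3 libraries (log2 fold change −0.90, standard error 0.628, adjusted p = 0.387 by edgeR). It thus had no more than 21 reads in any library, while miR-147b-3p had at least 162.

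MiR-132-3p, a strand induced by CREB, had the smallest standard error of the 7 members (0.213). It had 108, 117 and 99.1 CPM in the combined treatment libraries, against 113, 106 and 122 CPM in the RSL3 libraries. The groups overlapped, with a log2 fold change of −0.08 (95% interval −0.55 to 0.39, adjusted p = 0.845 by edgeR), which turned to 0.30 with library totals. Together with miR-212-3p, of the same seed and the same cluster, it came to 116 ± 8.51 CPM in the combined treatment group and 122 ± 8.24 CPM in the RSL3 group (SD, n = 3 each), of which miR-132-3p was 91.0% to 93.9%.

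The ratio of miR-132-3p to miR-212-3p reads was 15.1, 12.8 and 9.99 with the combined treatment and 14.6, 12.4 and 12.5 with RSL3 alone (exact permutation p = 0.9, two-sided, and the same after adjustment). The other arm of the hairpin, miR-132-5p, was the more abundant strand in every library, with 172, 173 and 216 CPM in the combined treatment libraries and 145, 152 and 143 CPM in the RSL3 libraries (log2 fold change 0.35, adjusted p = 0.326 by edgeR). There were 1.6, 1.48 and 2.18 5p reads for each 3p read in the combined treatment libraries, against 1.28, 1.43 and 1.18 in the RSL3 libraries. The groups did not overlap, but the log2 ratio of 3p to 5p differed by −0.42 with a standard error of 0.340 (adjusted p = 0.516 by limma). How many of the 181 hairpins had arm ratios with groups apart was not counted. In CPM the groups were apart for 29.8% of all tested miRNAs.

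**Figure D3:**
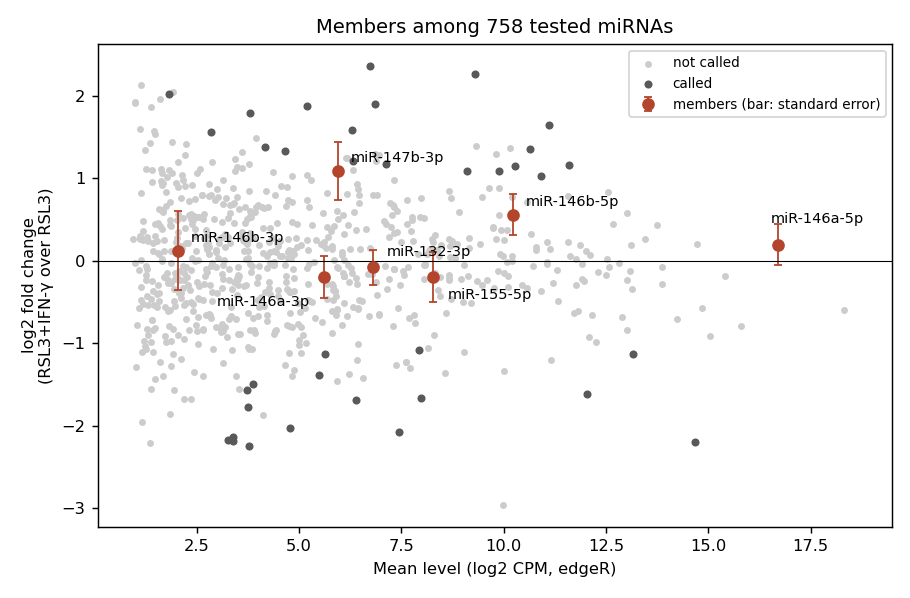
Log2 fold change, RSL3 combined with IFN-γ over RSL3, against mean level (log2 CPM) for the 758 miRNAs tested with edgeR. Called miRNAs are dark, all others are light, and the 7 members are red with their standard errors. MiR-147b-3p lies at 1.09 and miR-146b-5p at 0.56, and the other 5 members lie between −0.20 and 0.20.

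Directions of the small differences followed the scaling between libraries. With library totals all 7 members were higher in the combined treatment group, and with upper-quartile factors miR-146a-3p, miR-155-5p and miR-132-3p were lower, at −0.30, −0.27 and −0.18 on the log2 scale. The median of all tested miRNAs moved along, to 0.33 with library totals and −0.13 with upper-quartile factors. Relative to that median, under 5 scalings, miR-147b-3p was higher by 1.09 to 1.19 and miR-146b-5p by 0.56 to 0.61. Relative to it miR-155-5p was at −0.21 to −0.14 and miR-132-3p at −0.05 to −0.03.

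**Figure D4:**
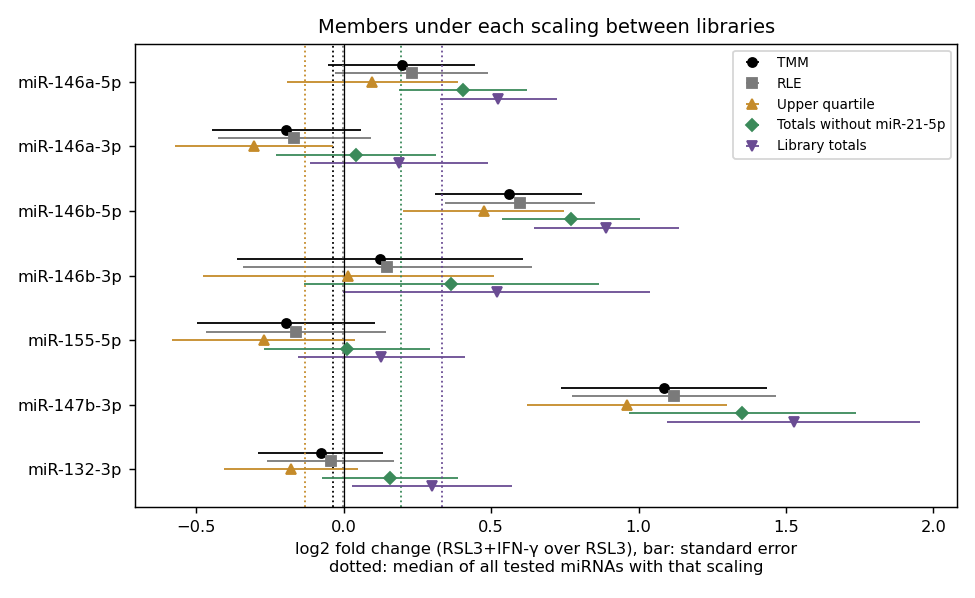
Log2 fold change of each member, RSL3 combined with IFN-γ over RSL3, with its standard error under 5 ways of scaling the libraries, and the median of all tested miRNAs under each (dotted lines). The values of each member shift with the dotted lines, from −0.13 with upper-quartile factors to 0.33 with library totals. MiR-147b-3p stays above 0.9 and miR-146b-5p above 0.4 throughout.

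GC content moved with the fold changes over the whole table. Across 679 tested miRNAs with a sequence (89.6% of those tested), Spearman's rho of GC content and log2 fold change was 0.47, a description across miRNAs of the same 6 libraries. MiR-146a-5p has 40.9% GC, and the 200 tested miRNAs within 5 points of it had a median log2 fold change of −0.24, against its own 0.20. For miR-146b-5p, at 43.5% GC, that median was −0.20, against 0.56. For miR-155-5p, at 37.5% GC, it was −0.32, against −0.20, and for miR-147b-3p, at 52.4% GC, it was 0.01, against 1.09. With the GC trend removed in each library, the log2 fold change was 0.45 for miR-146a-5p, 0.71 for miR-146b-5p, 0.23 for miR-155-5p and 0.97 for miR-147b-3p. None of the 7 was then called by edgeR, the sole tool run on these values, while 2.64% of all tested miRNAs were. An unadjusted p below 0.05 was found for 2 of the 7, again miR-147b-3p and miR-146b-5p, and for 23.5% of all tested miRNAs.

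By the pattern over the 6 libraries, measured as the root mean square difference of log2 CPM centred on its mean, the miRNAs nearest to miR-146a-5p were miR-505-3p (0.0835), miR-30c-2-3p (0.0986) and miR-181b-5p (0.131), of 472 at a mean of at least 10 CPM. The median distance over those was 0.462. Nearest to miR-146b-5p were miR-92b-5p (0.136), miR-874-3p (0.149) and miR-130b-3p (0.157), against a median of 0.508. Nearest to miR-147b-3p were miR-5100 (0.192), miR-1260a (0.196) and miR-219a-1-3p (0.212), against a median of 0.738. Like miR-147b-3p, miR-1260a was highest in replicate 2 of the combined treatment, at 631, 1979 and 1228 CPM in the combined treatment libraries against 480, 634 and 450 CPM in the RSL3 libraries. MiR-5100 (160 CPM) and miR-219a-1-3p (44.7 CPM) were also highest in that library. It stood apart in composition, with the largest TMM factor (1.33, the others 0.86 to 1.15) and the lowest miR-21-5p share (22.1%). The part of this in the shared pattern was not tested. The other miRNA of the miR-146a transcript, miR-3142, came to 6.84 ± 2.42 CPM in the combined treatment group and 6.16 ± 0.642 CPM in the RSL3 group (SD, n = 3 each; adjusted p = 0.812 by edgeR).

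A list of 22 other miRNAs tied elsewhere to NF-κB, Toll-like receptor or interferon signalling, or arms and relatives of the members, gave 19 tested entries. Of these miR-21-3p rose and miR-9-5p, which represses NFKB1, fell in the combined treatment group, and 17 did not pass. Of all tested miRNAs 4.75% were called. MiR-21-3p had 2588 ± 141 CPM in the combined treatment group and 1268 ± 193 CPM in the RSL3 group (SD, n = 3 each; log2 fold change 1.03, adjusted p = 0.0316 by edgeR). MiR-9-5p had 2244, 1657 and 2266 CPM in the combined treatment libraries, against 4649, 3755 and 10542 CPM in the RSL3 libraries (log2 fold change −1.62, adjusted p = 0.0363 by edgeR). RSL3 replicate 3 was the highest library, and without it the log2 fold change was −1.06 (adjusted p = 0.0701 by edgeR). With the GC trend removed it was −1.07 and was no longer called (adjusted p = 0.0964 by edgeR, and 0.129 with the block as well). MiR-301a-3p, known to sustain NF-κB activity, was not called (−1.12, adjusted p = 0.121 by edgeR). It was called lower with the replicate block (−1.16, adjusted p = 0.0384 by edgeR) but not with the block and the GC trend removed (−0.81, adjusted p = 0.132 by edgeR). The median log2 fold change of the 19 was 0.05, against −0.04 over all tested miRNAs. Neither call was kept without replicate 2 or 3 of the combined treatment or without RSL3 replicate 1 or 3. EdgeR then called 0 of the list in each case. In that order, 3, 3, 2 and 4 entries had an unadjusted p below 0.05 with edgeR. So had 141 of 787, 172 of 782, 124 of 810 and 159 of 805 of all tested miRNAs. DESeq2 called 2, 3, 1 and 2 of the list, while limma called 0, 0, 0 and 2. Over all tested miRNAs DESeq2 called 15 higher and 18 lower, 26 and 36, 10 and 10, and 24 and 26. Limma called 5 and 7, 7 and 12, 4 and 1, and 15 and 23.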

How the data were processed

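Small RNA of 6 libraries was sequenced, and the deposited table gives the counts of each mature miRNA as the authors made them. The submitters' processing notes list Bowtie 1.1.1, bcl2fastq, edgeR and GRCh38. No source used here names a miRBase release or says how reads matching several miRNAs were counted. Besides the counts, the deposited table has a signal column per library, the counts divided by one library total (the counts sum to 1.03 to 1.16 times it), and the authors' own fold changes and p-values. Neither was used.

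Samples were grouped by title. Tests used edgeR 4.0.16 in R 4.3.3 (quasi-likelihood, TMM, minimum count 10, minimum total 15), which kept 758 of 1596 miRNAs, with Benjamini-Hochberg adjustment. The standard error is the log2 fold change over the root of F. Arm ratios (0.5 reads added, hairpins averaging 10 reads or more on both arms) were tested with limma 3.58.1. Alternatives were DESeq2 1.42.0, limma, other scalings and filters, a loess GC correction (span 0.75), a replicate block and single libraries left out. Scripts were tested on simulated data. RefSeq sequences matched 1425 of 1596 miRNAs.

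Both groups carry replicate numbers 1 to 3. Deviations from the group means correlated at 0.233, 0.221 and 0.211 between libraries of one number, above the 0.1 taken as pairing. Between libraries of different numbers they correlated at −0.268 to 0.0228. No source says what the numbers mark. The main fit and its intervals did not use them, and the fit with the replicate block did. No 2 libraries were alike within counting noise.

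The members, lists and rules were chosen with earlier results of these data known. Named are the members, their other arms and seed relatives, called entries of the list of other miRNAs, tested cell markers, entries ranked above miR-146a-5p, and the 3 nearest patterns of 3 members.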

Additional observations from a re-analysis of the deposited data

How the results depend on the processing

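The log2 fold changes of miR-147b-3p and miR-146b-5p stayed positive under every alternative run. Of the 7 members edgeR called 0 with all libraries and TMM factors (2 had an unadjusted p below 0.05, and limma also called 0). It called 2 with library totals only, 1 with no filter on low counts, and 1 with the replicate block (0 once the GC trend was also removed, where edgeR alone was run and 2 had an unadjusted p below 0.05), and DESeq2 called 1. With single libraries left out the number was 0 to 1. The replicate block changed no other member's call. Of the list of other NF-κB and interferon miRNAs, 2 were called, but 1 with upper-quartile factors, 4 with no filter, 1 with the GC trend removed, which ended the call of miR-9-5p, 0 with that trend removed and the replicate block, which also ended that of miR-21-3p (0.99, adjusted p = 0.0553 by edgeR; edgeR alone was run, and 6 had an unadjusted p below 0.05), and 0 to 4 with single libraries left out.

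Small differences changed sign. MiR-146a-3p went to 0.19 with library totals, 0.041 with totals without miR-21-5p (a scaling chosen after seeing the data), 0.10 with the GC trend removed and 0.11 with the replicate block added to that. In the same order miR-155-5p went to 0.13, 0.011, 0.23 and 0.21. MiR-132-3p went to 0.30 and 0.16 with the totals, and miR-146b-3p to −0.19 and −0.069 with the GC correction, without and with the replicate block. Leaving out single libraries gave −0.037 to 0.31 for miR-146a-5p, −0.37 to 0.023 for miR-146a-3p, −0.12 to 0.66 for miR-146b-3p, −0.60 to 0.13 for the arm ratio of miR-146b and −0.22 to 0.084 for miR-132-3p over miR-212-3p. The cause was not tested. Depth limits miR-146b-3p, with 63 reads in the combined treatment group and 54 in the RSL3 group. Over all miRNAs edgeR called 36, against 71 with library totals, 82 with the replicate block, 106 with no filter, 20 with the GC trend removed, 13 with the replicate block added to that, and 0 to 95 with single libraries left out, while DESeq2 called 95. The 0 came without RSL3 replicate 1, where 124 had an unadjusted p below 0.05, DESeq2 called 20 and limma 5. Higher and lower calls numbered 19 and 17 with TMM factors, 60 and 11 with library totals and 15 and 24 with upper-quartile factors.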
